A study of Mus musculus with 8 samples.

Results

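The genes described here are the activators of the circadian clock and the output factors that the clock drives in liver. They comprise Arntl, Clock and Npas2, the nuclear receptor Rora, the PAR bZIP factors Dbp, Tef and Hlf, and Nfil3. These 8 genes, of 52636 in each count table, were picked by symbol, with the difference between AAV8-AGXT and AAV8-GFP livers already known. Their levels, fold changes and calls in that comparison are therefore given as a description, and no conclusion is drawn from the calls.

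Liver RNA of 8 male wild-type C57BL/6J mice was sequenced, 4 given AAV8-GFP (animals 303, 311, 314 and 315) and 4 given AAV8-AGXT (animals 308, 309, 316 and 319), with 1 library per mouse. AAV8 is an adeno-associated virus that reaches the liver, and it carried GFP or human AGXT, an enzyme that converts glyoxylate to glycine, under the TBG promoter, which is active in hepatocytes. Mice received the virus when 7 weeks old, and from 8 weeks of age all mice ate the MASH diet, which is rich in fat, fructose and cholesterol, for 24 weeks, so both groups carried a virus and both had a fatty liver diet. The animals were housed under a light/dark cycle with free access to food. The clock time at which each liver was taken is not given in the sources used here, and its part in any difference below was not tested.

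The clock of liver cells is a loop of transcription and translation. ARNTL (also called BMAL1) pairs with CLOCK, or with its relative NPAS2, and the pair binds E-boxes and switches on genes that include the Per and Cry repressors, Nr1d1 and Nr1d2, and the output factors Dbp, Tef and Hlf. The PER and CRY proteins then inhibit the pair, while the ROR receptors activate, and the REV-ERB receptors encoded by Nr1d1 and Nr1d2 repress, genes that carry a RORE, Arntl, Npas2 and Nfil3 among them. DBP, TEF and HLF activate genes with a D-box, which NFIL3 represses at the same site, and through this site the clock reaches detoxification genes of the liver.

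The letters of these 3 kinds of site were searched in the RefSeq promoter windows of GRCm38.p6, each running from 250 bases before to 50 bases after an annotated start. All 8 genes had a window, 12 in all, because Arntl and Tef had 2 each and Clock had 3. On either strand, the E-box CACGTG was in both windows of Tef and in no window of the other 7 genes, against 7.15% of all 32851 windows. The RORE, searched as TAGGTCA and TAGGTTA, was in the windows of Arntl and Nfil3, against 4.0% of all windows. The D-box, searched as TTATGTAA and TTACGTAA, was in none of the 12, against 1.06% of all windows. The 3 motifs do not overlap one another here. The windows of Nfil3 and Tef and the second window of Arntl, which has more matches than the first, are shown because they carry the sites named above, and that of Dbp because it had the highest fold change of the 8 genes. Each reads 5′ to 3′ on the strand of the gene, with matched letters in capitals, and positions count the first transcribed base as 1.
Arntl, second window, chr7:113207261-113207560, plus strand: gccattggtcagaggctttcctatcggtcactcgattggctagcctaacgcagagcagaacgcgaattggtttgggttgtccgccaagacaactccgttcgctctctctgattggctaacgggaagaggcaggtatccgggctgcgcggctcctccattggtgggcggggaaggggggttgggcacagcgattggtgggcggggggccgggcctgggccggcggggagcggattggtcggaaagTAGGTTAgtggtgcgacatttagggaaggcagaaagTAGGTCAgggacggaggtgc
Nfil3, chr13:52980990-52981289, minus strand: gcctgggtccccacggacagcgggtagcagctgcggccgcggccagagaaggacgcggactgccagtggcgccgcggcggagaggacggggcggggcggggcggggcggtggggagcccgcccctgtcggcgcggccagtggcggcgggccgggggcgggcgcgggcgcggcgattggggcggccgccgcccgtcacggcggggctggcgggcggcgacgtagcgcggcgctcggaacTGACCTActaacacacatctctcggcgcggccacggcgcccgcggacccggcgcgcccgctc
Tef, first window, chr15:81802423-81802722, plus strand: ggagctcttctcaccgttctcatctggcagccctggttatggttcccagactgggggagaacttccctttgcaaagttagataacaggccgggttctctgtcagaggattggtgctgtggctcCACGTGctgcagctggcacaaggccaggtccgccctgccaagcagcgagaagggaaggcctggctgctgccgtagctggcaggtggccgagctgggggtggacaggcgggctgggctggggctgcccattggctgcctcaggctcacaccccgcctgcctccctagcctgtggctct
Tef, second window, chr15:81811164-81811463, plus strand: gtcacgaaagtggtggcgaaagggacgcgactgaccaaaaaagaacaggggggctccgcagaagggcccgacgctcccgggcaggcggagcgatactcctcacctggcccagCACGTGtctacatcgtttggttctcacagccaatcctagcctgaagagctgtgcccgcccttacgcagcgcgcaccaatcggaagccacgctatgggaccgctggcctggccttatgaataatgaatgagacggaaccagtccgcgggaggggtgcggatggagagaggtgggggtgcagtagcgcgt
Dbp, chr7:45704997-45705296, plus strand: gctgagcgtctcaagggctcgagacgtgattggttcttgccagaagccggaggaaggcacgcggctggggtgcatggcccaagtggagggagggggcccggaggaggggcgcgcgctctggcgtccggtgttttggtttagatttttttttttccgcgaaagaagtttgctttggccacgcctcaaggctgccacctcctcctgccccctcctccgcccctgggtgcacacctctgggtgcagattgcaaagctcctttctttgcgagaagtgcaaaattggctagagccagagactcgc
In the second window of Arntl the matches began at positions -6 and 31, and in Nfil3 the match lay on the opposite strand from position -12. The E-boxes of Tef began at -127 in the first window and -138 in the second. These are matches of letters, not measured binding sites, and sites outside these windows were not searched.

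Values below are CPM, a gene's count per megaread of its library, normalized by edgeR's TMM factors, which correct for the RNA composition of each library. All 8 genes passed the filter on low counts, each with between 1273 and 19594 read pairs over the 8 mice. A gene was called at a Benjamini-Hochberg adjusted p under 0.05 in edgeR's quasi-likelihood test, which called 664 of 15248 genes (4.35%), 374 of them higher (2.45%) and 290 lower (1.90%) in AAV8-AGXT livers. Among the 8 genes, Tef and Hlf were called, both higher, and Arntl, Npas2, Dbp, Tef and Hlf had groups that did not overlap, as had 16.6% of all tested genes. Since this contrast served to choose the genes, nothing is read from these shares. Of the 8 means, 5 were higher in AAV8-AGXT livers, and the median log2 fold change was 0.13 against 0.02 over all tested genes. No call among the 8 was left without mouse 311, 314 or 319.

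Arntl, on chromosome 7 (113207465 to 113314126), encodes the partner that the clock's activating pair cannot do without. Its CPM were 16.4, 12.2, 14.2 and 12.6 in AAV8-GFP mice 303, 311, 314 and 315, and 8.84, 10.8, 7.50 and 4.01 in AAV8-AGXT mice 308, 309, 316 and 319. Every AAV8-AGXT mouse was below every AAV8-GFP mouse, and mouse 319 was the lowest of all. The means were 13.8 ± 1.89 and 7.79 ± 2.86 (SD, n = 4 each), with a log2 fold change of -0.83 (SE 0.26), or 1.78-fold lower, and the gene was not called. Fits without 1 of the mice gave log2 fold changes between -1.06 and -0.61.

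Npas2, on chromosome 1 (39193731 to 39363236), encodes a relative of CLOCK that also pairs with ARNTL, and it was the most reduced of the 8 genes. It measured 15.3, 8.91, 7.66 and 7.76 CPM in the 4 AAV8-GFP mice, and 3.80, 5.65, 3.49 and 1.51 CPM in the 4 AAV8-AGXT mice, in the same order of animals. The groups did not overlap, mouse 303 stood highest and mouse 319 lowest, as for Arntl. The means were 9.90 ± 3.62 and 3.61 ± 1.69 CPM (SD, n = 4 each), which made Npas2 2.76-fold lower, at a log2 fold change of -1.46 (SE 0.37). It was not called, and its log2 fold change ran from -1.79 to -1.18 with mice left out.

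Clock, on chromosome 5 (76209868 to 76304792), encodes the usual partner of ARNTL, and its group means, unlike those of its relative Npas2, lay close together. Mice 303, 311, 314 and 315 had 34.2, 31.2, 35.7 and 36.5 CPM, and mice 308, 309, 316 and 319 had 42.5, 41.4, 34.4 and 30.2 CPM. The AAV8-AGXT group held both the highest and the lowest values, so the groups overlapped. The log2 fold change was 0.11 (SE 0.12), and with total counts in place of TMM factors it was -0.13, so no direction is given for Clock.

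Rora, on chromosome 9 (68653786 to 69388246), encodes RORα, the receptor that activates Arntl through ROREs. Its CPM were 33.2, 32.4, 43.9 and 46.0 in the AAV8-GFP mice and 47.4, 45.1, 41.0 and 39.8 in the AAV8-AGXT mice. The groups overlapped, with animals 303 and 311 below all others. The log2 fold change of 0.16 (SE 0.14) also changed sign, to -0.08, with total counts.

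**Figure D1:**
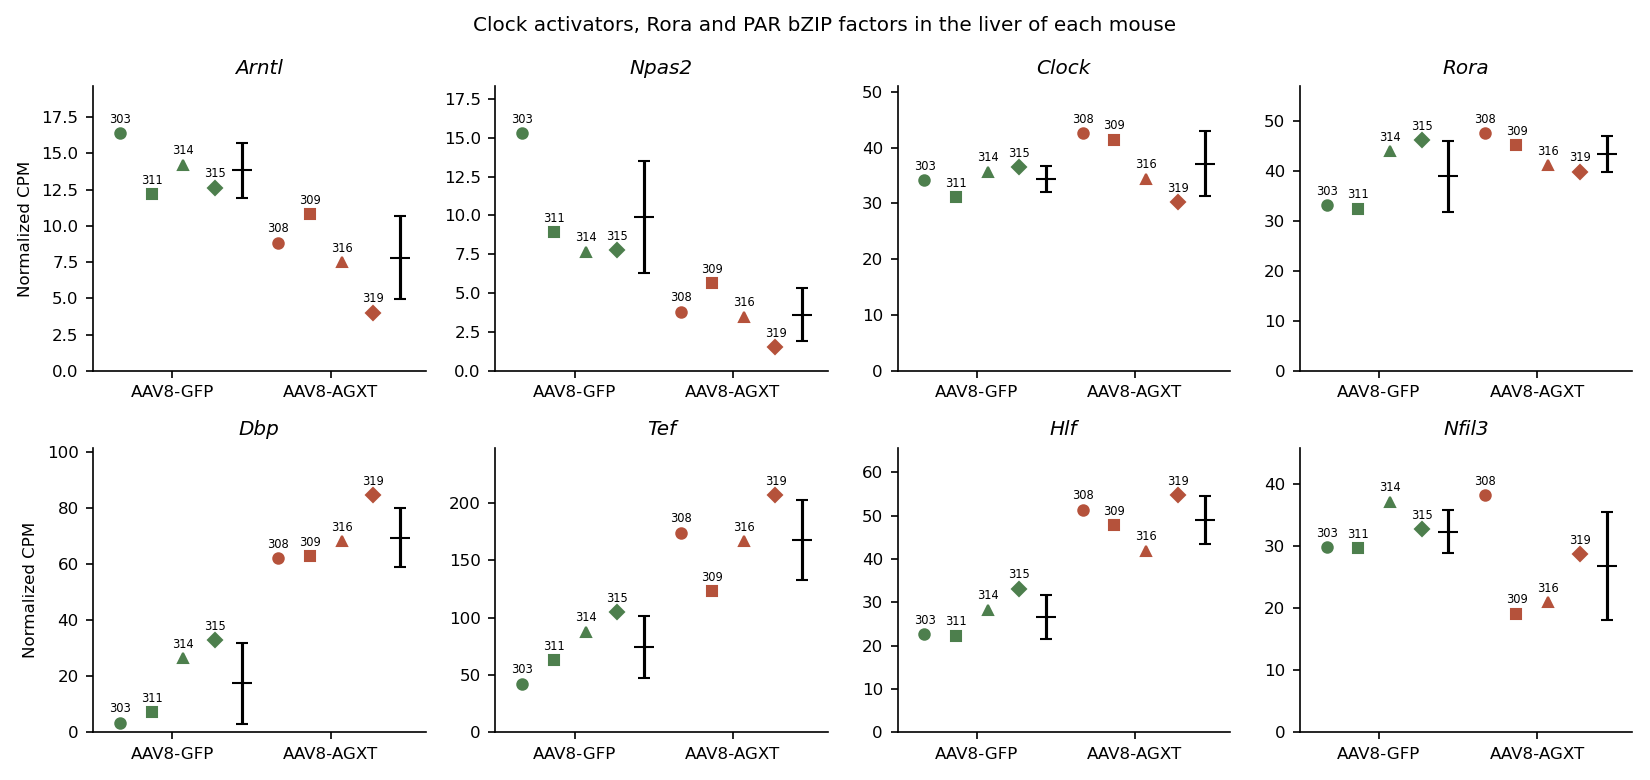
Normalized CPM (y axis, from 0) of the 8 genes in each of 4 AAV8-GFP mice (green) and 4 AAV8-AGXT mice (red), labelled by animal number, with the group mean and SD as black bars. Arntl and Npas2 are lower, and Dbp, Tef and Hlf higher, in every AAV8-AGXT mouse than in any AAV8-GFP mouse, while the groups overlap for Clock, Rora and Nfil3.

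Dbp, on chromosome 7 (45705088 to 45710203), encodes the PAR bZIP factor with the widest daily swing in liver, and it had the highest fold change of the 8 genes. It measured 3.44, 7.28, 26.5 and 32.8 CPM in mice 303, 311, 314 and 315, and 62.1, 62.7, 68.2 and 84.7 CPM in mice 308, 309, 316 and 319. All AAV8-AGXT mice were above all AAV8-GFP mice, but the AAV8-GFP mice fell apart, with 303 and 311 far below 314 and 315. The coefficient of variation was accordingly 82.0% in AAV8-GFP and 15.1% in AAV8-AGXT livers. The means, 17.5 ± 14.3 and 69.4 ± 10.5 CPM (SD, n = 4 each), differed 3.99-fold, at a log2 fold change of 2.0 (SE 0.57), and Dbp was not called. With mice left out it ranged from 1.65 to 2.50.

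Exons of Dbp share 539 bases, 18% of its exon length, with Sphk2 on the opposite strand, and the strand option of the counting is not given in the sources used here, so pairs from this stretch are uncertain. Sphk2 itself, a sphingosine kinase gene, ranged from 5.88 to 6.37 log2 CPM in AAV8-GFP and from 6.19 to 7.13 log2 CPM in AAV8-AGXT livers. Its log2 fold change was 0.46 (SE 0.19, edgeR adjusted p = 0.169), and the part of Sphk2 in the counts of Dbp was not tested. For Tef, Arntl and Rora such overlaps covered 2.45%, 0.439% and 0.627% of the exon length, and Clock, Npas2, Hlf and Nfil3 had none.

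Tef, on chromosome 15 (81802421 to 81826863), encodes a second PAR bZIP factor and was the most strongly counted of the 8 genes. Its CPM were 42.6, 62.8, 87.7 and 104.5 in the AAV8-GFP mice and 173.8, 122.9, 166.4 and 206.7 in the AAV8-AGXT mice. The groups did not overlap, and the lowest and highest mice, 303 and 319, were those of Dbp. The means were 74.4 ± 27.3 and 167 ± 34.4 CPM (SD, n = 4 each), a 2.25-fold difference at a log2 fold change of 1.17 (SE 0.26).

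Hlf, on chromosome 11 (90336536 to 90390895), encodes the PAR bZIP factor first known from a fusion in leukaemia, and it varied less between mice than Dbp or Tef. It measured 22.6, 22.3, 28.3 and 33.1 CPM in the AAV8-GFP mice, and 51.4, 47.7, 41.9 and 54.7 CPM in the AAV8-AGXT mice. No AAV8-AGXT mouse came down to the highest AAV8-GFP mouse. The difference was 1.84-fold, with means of 26.6 ± 5.13 and 48.9 ± 5.51 CPM (SD, n = 4 each) and a log2 fold change of 0.88 (SE 0.15). Hlf was called in 12 of the 15 alternative settings and Tef in 9, against 5 for Npas2, 4 for Dbp, 1 for Arntl and 0 for Clock, Rora and Nfil3. Of the 8 fits without 1 mouse, Hlf was called in 5, Tef in 2, and Npas2 and Dbp in 1 each. In these fits the log2 fold change ranged from 0.79 to 1.01 for Hlf and from 0.98 to 1.38 for Tef. With all mice, the edgeR adjusted p was 0.0278 for Hlf and 0.0429 for Tef.

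Nfil3, on chromosome 13 (52967209 to 52981073), encodes the repressor that competes with the PAR bZIP factors for the D-box. The 4 AAV8-GFP mice had 29.8, 29.6, 37.1 and 32.6 CPM, and the 4 AAV8-AGXT mice had 38.2, 19.1, 21 and 28.7 CPM. Mouse 308 was the highest of all 8, and the other AAV8-AGXT mice were below every AAV8-GFP mouse, so the groups overlapped through that 1 animal. The log2 fold change was -0.27 (SE 0.20), and fits without 1 of the mice gave between -0.50 and -0.16.

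**Figure D2:**
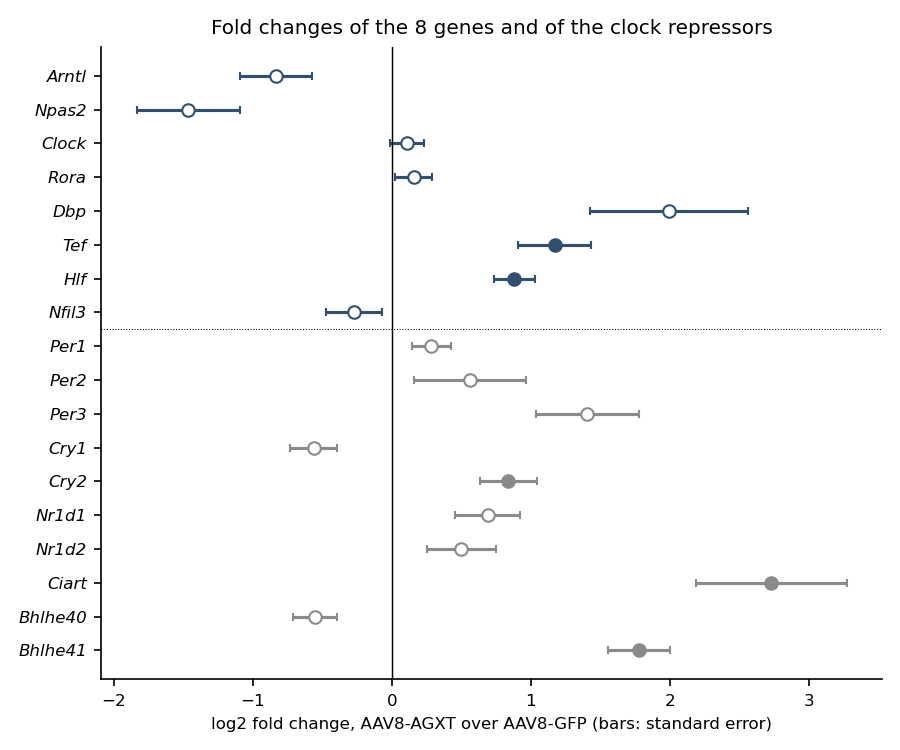
Log2 fold change of AAV8-AGXT over AAV8-GFP livers (x axis, bars are the standard error, n = 4 mice each) for the 8 genes in blue and the clock repressors in grey, with filled points for genes called by edgeR. The log2 fold change runs from -1.46 for Npas2 to 2.0 for Dbp, and from -0.56 for Cry1 to 2.73 for Ciart among the repressors.

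Divided by exon length, the levels can be ordered between genes. In AAV8-GFP livers the order in CPM per kb of exon was Nfil3 (15.9 ± 1.73), Tef (9.46 ± 3.47), Dbp (5.85 ± 4.79), Hlf (3.98 ± 0.768), Rora (2.97 ± 0.544), Clock (2.50 ± 0.171), Npas2 (2.07 ± 0.756) and Arntl (1.84 ± 0.252; SD, n = 4). Only Nfil3 and Tef were neighbours with ranges apart, although Tef was above Dbp, Hlf above Rora and Rora above Clock within each of the 4 mice. Dbp and Hlf, like Npas2 and Arntl, had 2 mice in either order.

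In AAV8-AGXT livers Dbp (23.2 ± 3.51) and Tef (21.3 ± 4.38) stood ahead of Nfil3 (13.2 ± 4.29), followed by Hlf (7.32 ± 0.825), Rora (3.31 ± 0.271), Clock (2.71 ± 0.426), Arntl (1.04 ± 0.381) and Npas2 (0.754 ± 0.354 CPM per kb; SD, n = 4). Here the ranges of Nfil3 and Hlf, of Hlf and Rora, and of Clock and Arntl were apart. Dbp was above Tef in 3 of 4 mice, and their ranges overlapped. Dbp thus went from the third place to the first, and Arntl and Npas2 kept the lowest 2 places. The length is that of all annotated exons, not of the isoforms in use.

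**Figure D3:**
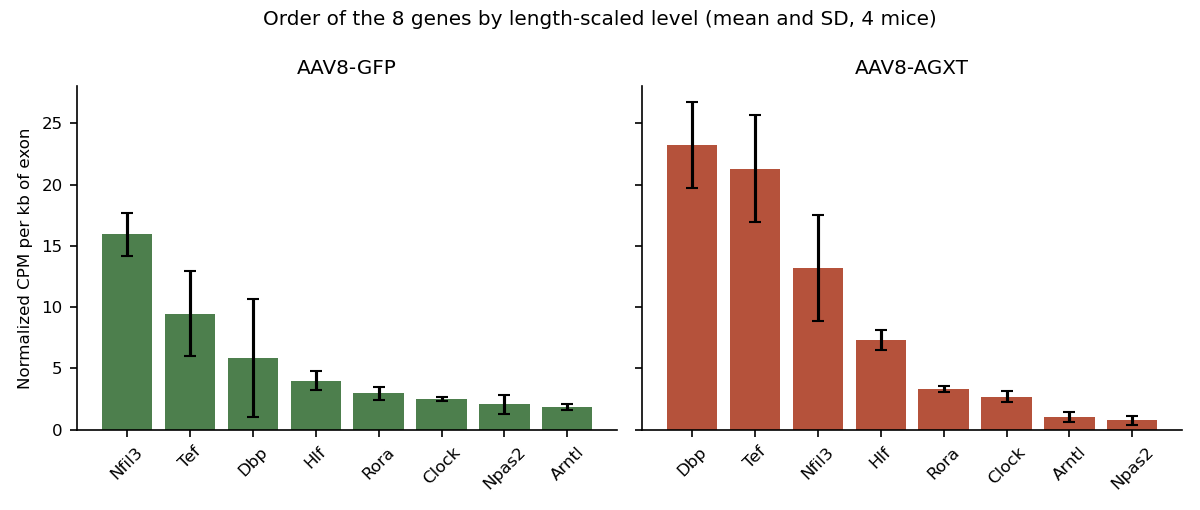
Mean CPM per kb of exon (y axis, from 0) of the 8 genes in AAV8-GFP (left) and AAV8-AGXT livers (right), ordered by level within each group, with the SD of 4 mice as error bars. Nfil3 leads at 15.9 CPM per kb in AAV8-GFP livers, and Dbp at 23.2 CPM per kb in AAV8-AGXT livers.

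How the 8 genes varied between mice of the same group does not use the difference between groups. For each of the 28 pairs of genes, log2 CPM (prior count 2) were centred on the group mean, and Pearson's r over the 8 mice was set against all 576 rearrangements of the mice within groups, a two-sided exact permutation test. No pair passed after adjustment over the 28 pairs, where the lowest adjusted exact permutation p was 0.0608, and 6 pairs had an unadjusted p under 0.05. In sign, the 3 pairs among Arntl, Clock and Npas2 were positive, as were the 3 pairs among Dbp, Tef and Hlf, and 7 of the 9 pairs between these trios were negative, without a test of these counts. These 7 became 6 without mouse 309 and 8 with total counts. The signs of Clock differed between groups, with r of -0.24 in AAV8-GFP and 0.87 in AAV8-AGXT mice for Npas2, 0.65 and -0.95 for Dbp, and 0.55 and -0.69 for Tef. Arntl and Npas2 had negative r with Dbp, Tef and Hlf in both groups.

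Arntl and Npas2 tended to run together, though not in every mouse and not past adjustment, at r = 0.93 (exact permutation p = 0.0139, adjusted 0.0778) and Spearman's rho = 0.80 (exact permutation p = 0.0503, adjusted 0.292). Without mice 309 and 319, which were farthest from the median of Arntl, r was 0.74. Arntl and Clock gave r = 0.83 (exact permutation p = 0.0434, adjusted 0.203) and rho = 0.81 (exact permutation p = 0.0764, adjusted 0.306), and this fell to 0.49 without the same animals, so it rests on them. Clock and Rora gave r = 0.67 (exact permutation p = 0.00868, adjusted 0.0608) and rho = 0.69 (exact permutation p = 0.00347, adjusted 0.0972), and r = 0.72 without mice 308 and 319.

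Within groups, Npas2 tended to run against Tef and Dbp, though not in every mouse and not past adjustment. For Npas2 and Tef r was -0.79 (exact permutation p = 0.00694, adjusted 0.0608), rho was -0.83 (exact permutation p = 0.0174, adjusted 0.227), and r was -0.92 without mice 309 and 319. For Npas2 and Dbp r was -0.56 (exact permutation p = 0.00694, adjusted 0.0608), rho was -0.68 (exact permutation p = 0.0243, adjusted 0.227), and r was -0.89 without these mice. Dbp and Tef tended to run together, again not in every mouse, at r = 0.91 (exact permutation p = 0.00694, adjusted 0.0608) and rho = 0.86 (exact permutation p = 0.0556, adjusted 0.292), with r = 0.68 without mice 303 and 315. Arntl and Dbp had r = -0.27 (exact permutation p = 0.167, adjusted 0.333) and rho = -0.34 (exact permutation p = 0.316, adjusted 0.499).

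**Figure D4:**
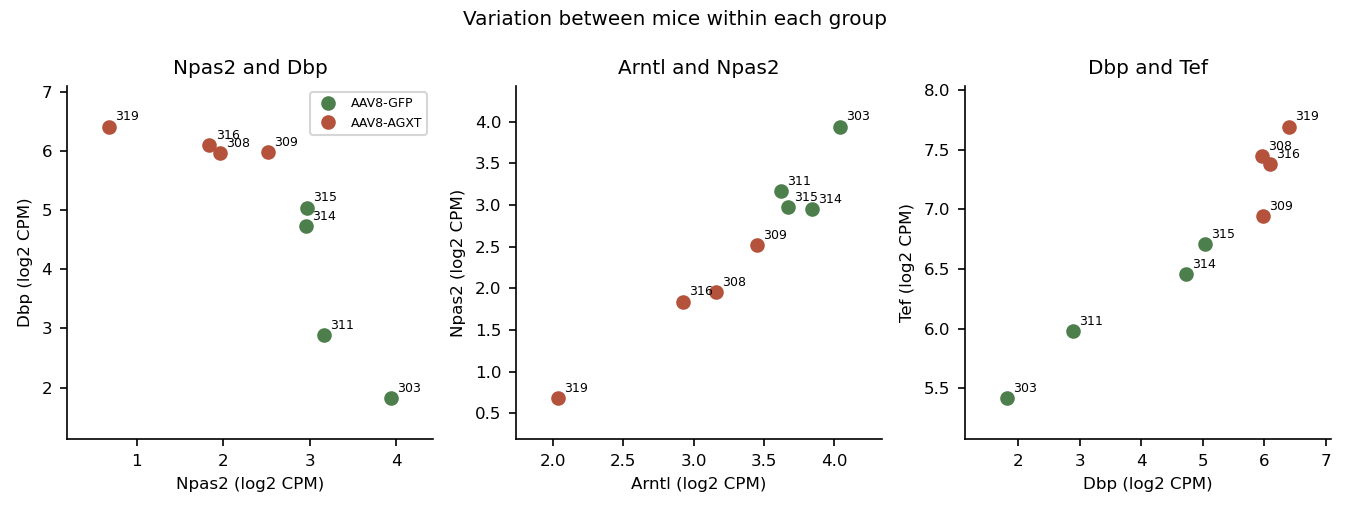
Log2 CPM of 3 pairs of genes, with 1 point per mouse labelled by animal number, AAV8-GFP in green and AAV8-AGXT in red. Dbp runs against Npas2, and Npas2 runs with Arntl and Tef with Dbp, though not in every mouse of a colour, and mice 303 and 319 lie at the ends of each panel.

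The same centred values were compared with all other genes of at least 1 CPM on average, 13745 for each gene, as a description. The genes most like Arntl were Rnf144a (r = 0.98), Slc18b1 (0.98), St5 (0.97), Tfpi (0.96) and Tmem64 (0.95), and Npas2 came at place 23 of 13745. Those most like Dbp were Gm6793 (r = 0.98), Psph (0.97), Klf13 (0.97), Nr1d2 (0.97) and Gorasp2 (0.97), and Nr1d2, which encodes a REV-ERB receptor, was thus at place 4. Per2 was at place 62 and Tef at place 81 for Dbp. Each r is over 8 points that share their libraries. The log2 SD of Dbp was 1.53 in AAV8-GFP and 0.21 in AAV8-AGXT livers, and that of Arntl 0.19 and 0.61. The likeness to Dbp thus rests mostly on the AAV8-GFP mice, and that to Arntl on the AAV8-AGXT mice.

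The lists below were chosen with earlier results of these data known, so nothing is read from their shares of called genes. Over all tested genes 2.45% were called higher and 1.90% lower. Of the repressors of the clock, 3 of 10 were called higher and 0 lower, and the list's median log2 fold change was 0.62 against 0.02 over all tested genes. Ciart, an inhibitor of the CLOCK and ARNTL pair, rose from between 1.09 and 4.94 CPM in AAV8-GFP to between 7.09 and 34.7 CPM in AAV8-AGXT livers, with a log2 fold change of 2.73 (SE 0.54, edgeR adjusted p = 0.0349). Bhlhe41, which competes for E-boxes, rose from between 1.48 and 2.73 CPM to between 6.06 and 7.73 CPM, a log2 fold change of 1.78 (SE 0.22, edgeR adjusted p = 0.0137). The gene model Gm43909 shares 19% of its exon length on the other strand. Cry2 rose by a log2 fold change of 0.84 (SE 0.20, edgeR adjusted p = 0.0495), from between 15.3 and 28.4 CPM to between 31.0 and 44.6 CPM. Cry1 had the lowest log2 fold change of the list, -0.56 (SE 0.17, edgeR adjusted p = 0.0814), and its groups did not overlap. Bhlhe40, the relative of Bhlhe41, went the other way at a higher level, from between 104 and 162 CPM to between 72.2 and 99.3 CPM. Its log2 fold change was -0.55 (SE 0.15, edgeR adjusted p = 0.0703), also without overlap of the groups. With total counts 2 of the 10 were called higher and 2 lower, beside 144 and 857 of all 15248 tested genes. With DESeq2 the calls were 5 higher and 2 lower, beside 1077 and 1054 of all 15248 tested genes. Without mouse 311 or 319 none was called, and of the 8 fits without 1 mouse, Bhlhe41 was called in 6, Ciart in 4 and Cry2 in 2.

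Of the modifiers of clock proteins, such as casein kinases and F-box proteins, 1 of 7 was called, against 4.35% of all tested genes. This was Usp2, a deubiquitinase gene that the clock itself controls, at a log2 fold change of 1.71 (SE 0.40, edgeR adjusted p = 0.0465). It was called in 4 of the 15 alternative settings and in 0 of the 8 fits without 1 mouse. It ranged from 3.05 to 11.3 CPM in AAV8-GFP and from 19.3 to 46.8 CPM in AAV8-AGXT livers, whereas the other 6 genes had log2 fold changes between -0.25 (Csnk1e) and 0.08, and the list's median was -0.06. The C/EBP family, bZIP factors that bind sites similar to the D-box, had 1 of 6 genes called, Cebpa, at a log2 fold change of 0.50 (SE 0.11, edgeR adjusted p = 0.0429). The lowest of that family was Ddit3 at -0.67 (SE 0.22, edgeR adjusted p = 0.101), and the median was 0.07. Without 1 mouse, Cebpa was called in 1 of 8 fits.

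Of the 8 genes listed as targets of PAR bZIP factors or NFIL3, 3 were called higher and 1 lower, with a median log2 fold change of 1.11. Of all tested genes, 2.45% were called higher and 1.90% lower. Por, the reductase that passes electrons to all microsomal P450 enzymes, rose from between 218 and 299 CPM to between 419 and 773 CPM, a log2 fold change of 1.32 (SE 0.20, edgeR adjusted p = 0.0246). Alas1, which encodes the first enzyme of haem synthesis, rose from between 325 and 691 CPM to between 928 and 1656 CPM, a log2 fold change of 1.26 (SE 0.26, edgeR adjusted p = 0.0366). Cyp2a5, a coumarin hydroxylase gene, was higher by 1.65 (SE 0.40, edgeR adjusted p = 0.0495), although its groups overlapped. Cyp2a4, its near-identical paralog, fell by 2.38 on the log2 scale (SE 0.50, edgeR adjusted p = 0.0375), at no more than 2.77 CPM in any mouse. Read pairs of these paralogs may not be told apart in the counting, so both values are uncertain. Of the 8 fits without 1 mouse, Por was called in 5, Alas1 in 3, and Cyp2a5 and Cyp2a4 in 2 each.

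Of other outputs of the clock, 1 of 7 was called higher and 1 lower, with a median log2 fold change of 0.44. The shares over all tested genes were 2.45% higher and 1.90% lower. Gys2, the liver glycogen synthase gene, rose by 0.93 (SE 0.20, edgeR adjusted p = 0.0413), and Cdkn1a, which encodes the cell cycle inhibitor p21, fell by 0.95 on the log2 scale (SE 0.19, edgeR adjusted p = 0.0349). Elovl3, a fatty acid elongase gene, had the highest value of the list, 1.16 (SE 0.60, edgeR adjusted p = 0.252). Among genes that respond to glucocorticoids or feeding, which can also set the phase of the liver clock, 1 of 7 was called and the median was -0.17. This was Fkbp5, a glucocorticoid receptor co-chaperone gene, at 1.37 (SE 0.23, edgeR adjusted p = 0.0283). Of the 8 fits without 1 mouse, Fkbp5 was called in 5, and Gys2 and Cdkn1a in 2 each. Over all these lists 12 genes were called, and none was without mouse 311 or 319.

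**Figure D5:**
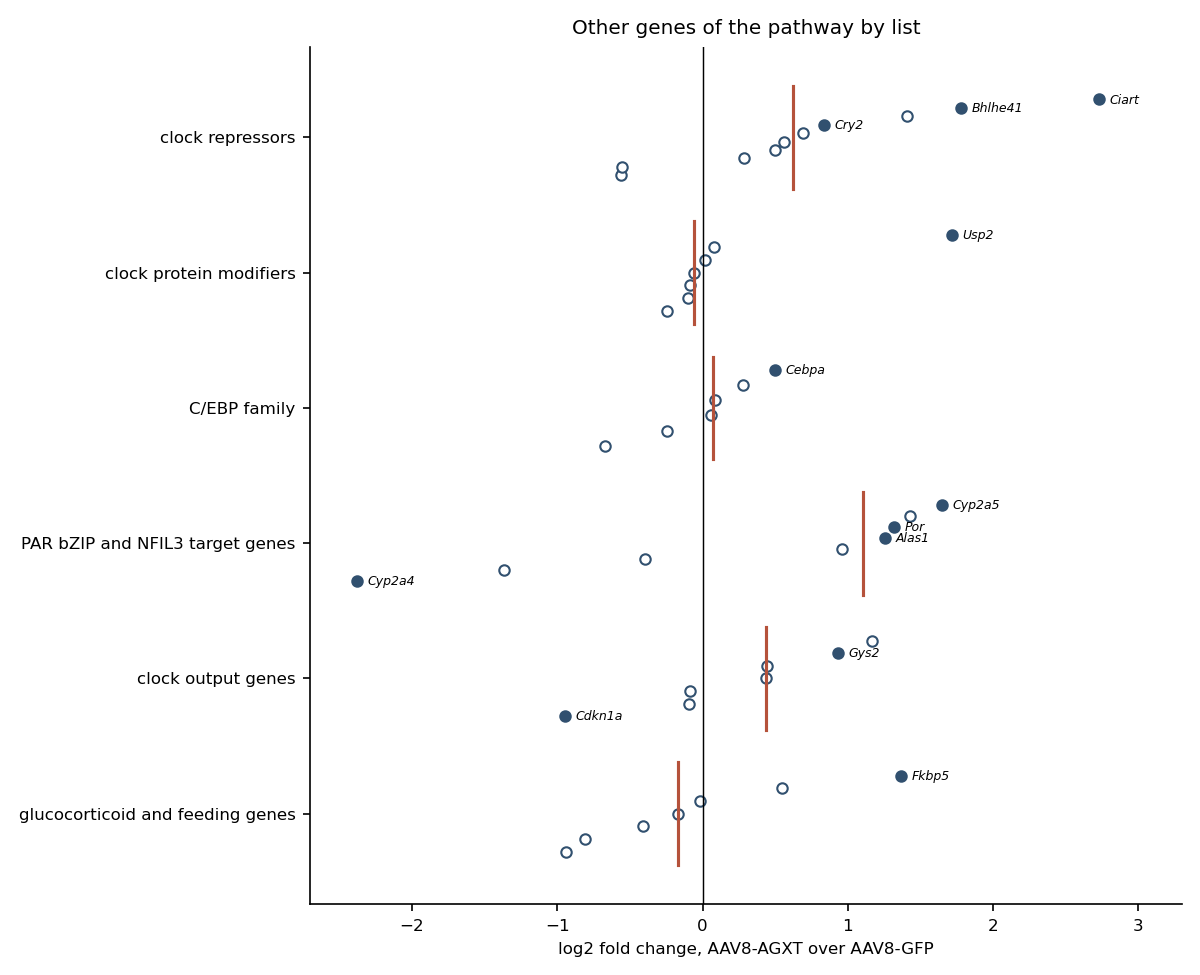
Log2 fold change of AAV8-AGXT over AAV8-GFP livers (x axis) for each tested gene of 6 lists of related genes, with filled and named points for genes called by edgeR and the list's median as a red line. The medians run from -0.17 for glucocorticoid and feeding genes to 1.11 for targets of PAR bZIP factors and NFIL3.

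The liver label was checked against its markers. Hepatocyte markers summed to between 42590 and 51565 CPM in AAV8-GFP and between 52301 and 73242 CPM in AAV8-AGXT livers. Of these 5 markers 1 was called higher, against 2.45% of all tested genes. This was Cps1, a urea cycle gene (log2 fold change 0.96, SE 0.16, edgeR adjusted p = 0.0279). In the lists for macrophages, stellate cells, endothelium, bile duct cells and lymphocytes, 5 genes each, edgeR called 0 of 25 genes, against 4.35% of all tested genes. Of the 25, 10 had an unadjusted p under 0.05 in edgeR's test, among them all 5 bile duct markers. The share of all tested genes under that unadjusted p is not given, so nothing is read from the 10. DESeq2 called 4 bile duct markers, 1 macrophage, 1 stellate cell and 1 lymphocyte marker lower, beside 1054 of all 15248 tested genes. Among these markers limma-voom called 0. In edgeR, 2 bile duct markers were called lower without mouse 315, 2 with no filter, together with 1 stellate cell marker, and 1 with total counts. Of all tested genes, these settings called 325 of 15439, 431 of 28338 and 857 of 15248 lower. Stellate cell markers summed to 374 to 638 CPM in AAV8-GFP and 181 to 450 CPM in AAV8-AGXT livers, bile duct markers to 225 to 673 CPM and 74.1 to 272 CPM, and macrophage markers to 419 to 726 CPM and 201 to 580 CPM. Endothelial markers summed to 93.1 to 146 CPM and 107 to 170 CPM, lymphocyte markers to 9.55 to 13.1 CPM and 4.83 to 9.81 CPM, and no marker was at 0 in any mouse. A single gene gave most of the bile duct sum, at 201 to 611 CPM in AAV8-GFP and 60.3 to 239 CPM in AAV8-AGXT livers. All of the bile duct and lymphocyte means were lower in AAV8-AGXT livers. The macrophage markers split, with 2 means higher and 3 lower, and the stellate cell markers had 1 higher and 4 lower. The part of these cell types in the values of the 8 genes was not tested. In whole liver, fewer cells of a type and less RNA per cell cannot be told apart.

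The read pairs that fell on genes numbered from 17095433 to 28780140 in a mouse. Mouse 308 had the lowest share of its read pairs on genes, 56.3% against 62.4% to 69.1% in the others, and the lowest TMM factor, 0.83. The mouse gene Agxt had 148 to 180 CPM in AAV8-GFP and 201 to 405 CPM in AAV8-AGXT livers (log2 fold change 0.90, SE 0.22, edgeR adjusted p = 0.0489). The transgene was human, so this does not check the labels. With total counts in place of TMM factors, the median log2 fold change of all genes moved to -0.22, and of the called genes 14.4% were higher in AAV8-AGXT livers in place of 56.3%. Relative to these medians, the values of Arntl, Npas2, Dbp, Tef and Hlf kept their direction.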

How the data were processed

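Liver RNA of 8 mice was sequenced by the authors as stranded paired-end mRNA libraries, and per the submitters' processing notes reads were checked with FastQC 0.11.8, trimmed with Trimmomatic 0.35, mapped with HISAT2 to GRCm38 and counted on Ensembl genes with HTSeq. The deposited values are raw counts per gene, without normalization. Genes were named from GENCODE M21 (52489 of 52636 matched). Mice were grouped by the treatment in the labels.

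Counts were fitted in R 4.3.3 with edgeR 4.0.16 (filterByExpr, TMM, quasi-likelihood F test, treatment as the only term), with Benjamini-Hochberg adjustment over 15248 genes. Log2 fold changes used a prior count of 0.125. Over all tested genes, edgeR estimated a biological coefficient of variation of 23.3%. Pairs of genes and promoter windows were processed in Python 3.11.15. The edgeR and permutation scripts were tested on simulated data.

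The 8 genes, the lists and the tests were chosen with earlier results of these data known. Named genes were the 8 genes, the called and the extreme genes of each list, and Bhlhe40 beside its relative Bhlhe41. The 5 genes most like Arntl and Dbp were named too. Some genes that this rule names are not reported here. Alternatives were DESeq2 1.42.0, limma-voom (limma 3.58.1), DESeq2 size factors, total counts, no filter, at least 10 counts in every mouse, robust estimation and each mouse left out. No sample was left out.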

Additional observations from a re-analysis of the deposited data

How the results depend on the processing

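The genes called were 2131 with DESeq2, 1001 with total counts, 682 with limma-voom and 846 without a filter, against 664. With 1 mouse left out they numbered between 2 (without mouse 311) and 643, where leaving out 319, 314, 308, 303 or 316 gave 14, 15, 177, 193 or 411. Of the 8 genes, 2 were called, against 5 with DESeq2, 4 with limma-voom, 4 without a filter and 0 to 3 with 1 mouse left out. Of the genes of the lists, cell type markers aside, 12 were called, against 20 with DESeq2 and 0 to 10 with 1 mouse left out. The number of pairs of genes past an adjusted p under 0.05 was 0 with Pearson's r, Spearman's rho, total counts and each mouse left out, although 6 pairs had an unadjusted exact permutation p under 0.05 with Pearson's r, 3 with Spearman's rho and 8 with total counts. With total counts the log2 fold changes of Clock, Rora and Hlf moved to -0.13, -0.08 and 0.64, and in the other settings none of the 8 genes changed sign. The cause of these shifts was not tested. No paired analysis was possible because the groups share no animal numbers. Depth limits the scarcest genes named, such as Cyp2a4.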

Other observations

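Mice 303 and 319 were the extremes of the 8 for several genes of the clock beyond the activators and PAR bZIP factors, chosen for mention after their values were seen. Mouse 303 had the lowest value of all 8 mice for Per2 (8.71 CPM), Per3 (3.51 CPM), Ciart (1.09 CPM) and Usp2 (3.05 CPM), and it had the highest for Arntl and Npas2. Mouse 319 had the highest for Per2 (56.3 CPM), Per3 (28.9 CPM), Ciart (34.7 CPM) and Usp2 (46.8 CPM), and the lowest for Arntl and Npas2. Per3, a period gene, had a log2 fold change of 1.41 (SE 0.37, edgeR adjusted p = 0.0622) between groups that did not overlap. The 4 AAV8-GFP mice differed among themselves in Per2 from 8.71 to 48.9 CPM, while Clock in the same mice stayed between 31.2 and 36.5 CPM.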
